A study of Mus musculus with 46 samples.

Results

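The genes described here are 42 genes of the cell division cycle, followed in the livers of mice on a lipid-rich diet (LD) and a carbohydrate-rich diet (CD). They were chosen by name as a list of known cell cycle genes, with earlier results of these data known. All 42 were found among the 25494 genes of the deposited count table. The list holds 9 genes of S phase, in which DNA is copied, 28 genes of mitosis, in which the copied chromosomes are separated, and 5 genes that act in G1 or in cell cycle arrest. The study fed male C57BL/6 mice, obtained at 5 weeks of age, for 20 weeks on LD, with 60% of energy from lipid, or on CD, with 70% of energy from carbohydrate. Liver RNA was sequenced from 5 LD mice and 5 CD mice, and chromatin of the same tissue was profiled for the histone mark H3K27ac (3 samples per diet), for binding of Hnf4α and C/EBPα (2 samples per diet each) and for promoter contacts. The labels give CD as a low fat diet and LD as a high fat diet, and name no engineered allele and no group on chow, so each difference below is between these diets.

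A dividing cell passes through G1, S phase, G2 and mitosis. Cyclins D and E with their kinases release E2F factors from the retinoblastoma proteins, E2F factors switch on the replication genes, and later the mitotic genes are switched on through an element called CHR (cell cycle genes homology region), bound by the MuvB complex, together with the factor FOXM1. The inhibitor p21, the product of Cdkn1a, opposes this, and it is a classical target of p53. Most hepatocytes of the adult liver rest outside the cycle, many of them polyploid, and they can enter it again after injury or loss of tissue. Other liver cells, such as macrophages and stellate cells, can divide as well.

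The promoters of the mitotic and S-phase genes differed in the sequence elements they held, and a few are printed here to show these elements. Each promoter was read from 250 bases before to 50 bases after the 5′ end of the RefSeq gene in the mouse genome build mm9 (NCBIM37), and searched on both strands. A CHR element was counted as TTTGAA or TTCGAA, and an E2F element as TTTCCCGC, TTTCGCGC, TTTGCCGC or TTTGGCGC. CHR letters stood in 20 of 28 mitotic promoters (71.4%), against 2 of 9 S-phase promoters, 0 of 5 G1 or arrest promoters and 13.8% of the 13492 promoters of tested genes. E2F letters stood in 5 of 9 S-phase promoters (55.6%), in 3 of 28 mitotic promoters (10.7%), in the promoter of E2f1 itself among the G1 genes, and in 3.93% of all. The letters CCAAT, where NF-Y binds, stood in 25 of 28 mitotic promoters (89.3%), 8 of 9 S-phase promoters (88.9%), 2 of 5 G1 or arrest promoters and 38.2% of all. These are matches of letters, not measured binding sites.

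**Figure D1:**
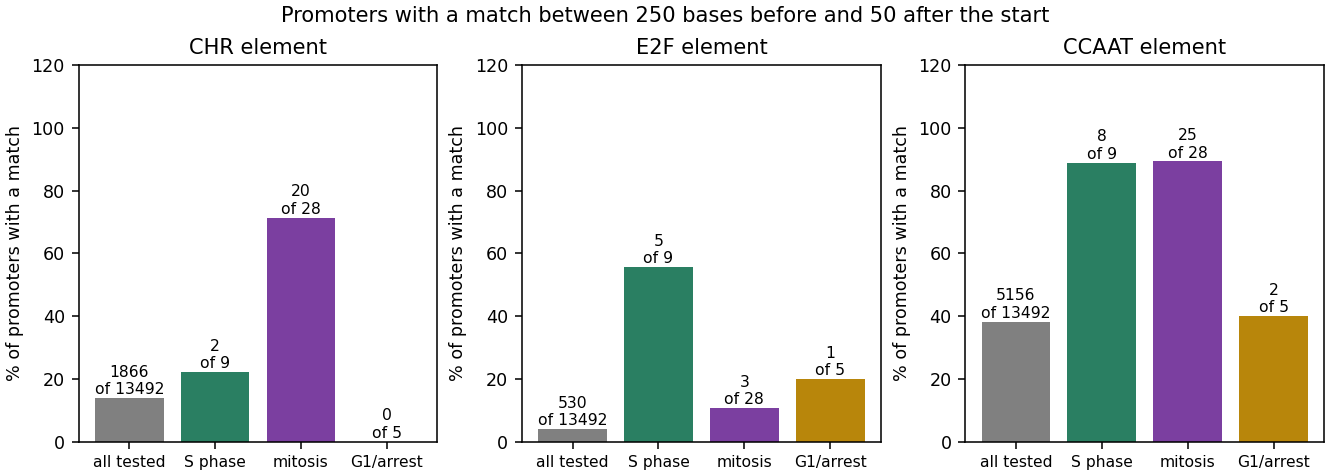
Share of promoters, in percent, with at least 1 match to the CHR, E2F or CCAAT letters, for all genes tested in the RNA and for each class of cell cycle genes, with counts above the bars. The CHR bar stands highest for mitosis (71.4%) and the E2F bar for S phase (55.6%), while the CCAAT bar is high in both.

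4 mitotic promoters are shown, each ending at the base before the gene's 5′ end, with CHR letters in capitals. In Cdc20 (chr4:118109949-118110008, minus strand) and Ube2c (chr2:164595369-164595428, plus strand) a single CHR match starts at position -18 and -29, counted from the first base of the gene as 0. Cdk1 (chr10:68815661-68815740, minus strand) has 2 matches in the stretch, at -71 and -15, and Top2a (chr11:98885504-98885653, minus strand) has 3, at -140, -120 and -23.
Cdc20: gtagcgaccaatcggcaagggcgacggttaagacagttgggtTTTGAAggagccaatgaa
Ube2c: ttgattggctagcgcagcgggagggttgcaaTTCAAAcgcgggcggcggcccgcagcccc
Cdk1: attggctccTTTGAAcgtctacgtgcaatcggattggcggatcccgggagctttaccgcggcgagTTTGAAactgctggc
Top2a: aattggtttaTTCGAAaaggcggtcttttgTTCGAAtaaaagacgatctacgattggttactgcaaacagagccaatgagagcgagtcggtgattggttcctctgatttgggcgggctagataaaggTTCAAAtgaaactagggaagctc
All 4 are written 5′ to 3′ on the strand of the gene, so a match read from the other strand appears as TTCAAA or TTCGAA.

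3 S-phase promoters are shown in the same way with E2F letters in capitals, and where matches overlap they form a single run. They are those of Mcm3 (chr1:20810295-20810384, minus strand), Mcm6 (chr1:130256283-130256402, minus strand) and Mcm5 (chr8:77633248-77633407, plus strand), which encode subunits of the replicative helicase.
Mcm3: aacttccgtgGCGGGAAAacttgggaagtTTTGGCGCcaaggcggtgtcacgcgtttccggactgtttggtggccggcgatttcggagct
Mcm6: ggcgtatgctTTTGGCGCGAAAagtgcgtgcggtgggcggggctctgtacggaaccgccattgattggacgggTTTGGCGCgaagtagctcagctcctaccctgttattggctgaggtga
Mcm5: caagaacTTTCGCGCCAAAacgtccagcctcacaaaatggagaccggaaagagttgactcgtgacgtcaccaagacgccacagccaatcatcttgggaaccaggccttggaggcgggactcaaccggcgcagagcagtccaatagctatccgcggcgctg
Mcm3 holds 2 matches, Mcm6 holds 3, of which 2 overlap, and Mcm5 holds 2 that overlap on opposite strands.

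The depth of the RNA libraries was 31707963 to 39012699 counted read pairs. Differences were tested with edgeR's quasi-likelihood test on the 13494 genes with enough counts, and a gene was called where its Benjamini-Hochberg adjusted p over all tested genes was under 0.05 and its fold change above 1.2. Levels below are CPM (per-million counts of the library, normalised by TMM) for a gene across mice, and TPM (per-million transcripts, which allow for gene length) where genes are set beside each other. Errors of log2 fold changes (LD over CD) are standard errors. In whole liver tissue, more dividing cells and more RNA per dividing cell cannot be told apart.

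39 of the 42 cell cycle genes rose on LD and 3 were not called. None was called lower by edgeR or DESeq2, and none was lower at an unadjusted p under 0.05. The background over all tested genes was 13.8% called higher and 11.1% called lower, or 24.9% in either direction. All 42 fold changes were above 0 on the log2 scale, with a median of 1.48 (range 0.17 to 2.25), where the median of all tested genes was -0.0019. In 33 genes every LD mouse lay above every CD mouse, as it did in 10.2% of all tested genes, and in none did every LD mouse lie below, against 8.35%. 8 of 9 S-phase genes rose, 27 of 28 mitotic genes rose and 4 of 5 G1 or arrest genes rose. The median log2 fold change over all genes of a class was 1.07 for S phase, 1.57 for mitosis and 0.81 for G1 or arrest. The genes that were not called were Tyms, Kif4 and Ccne1.

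**Figure D2:**
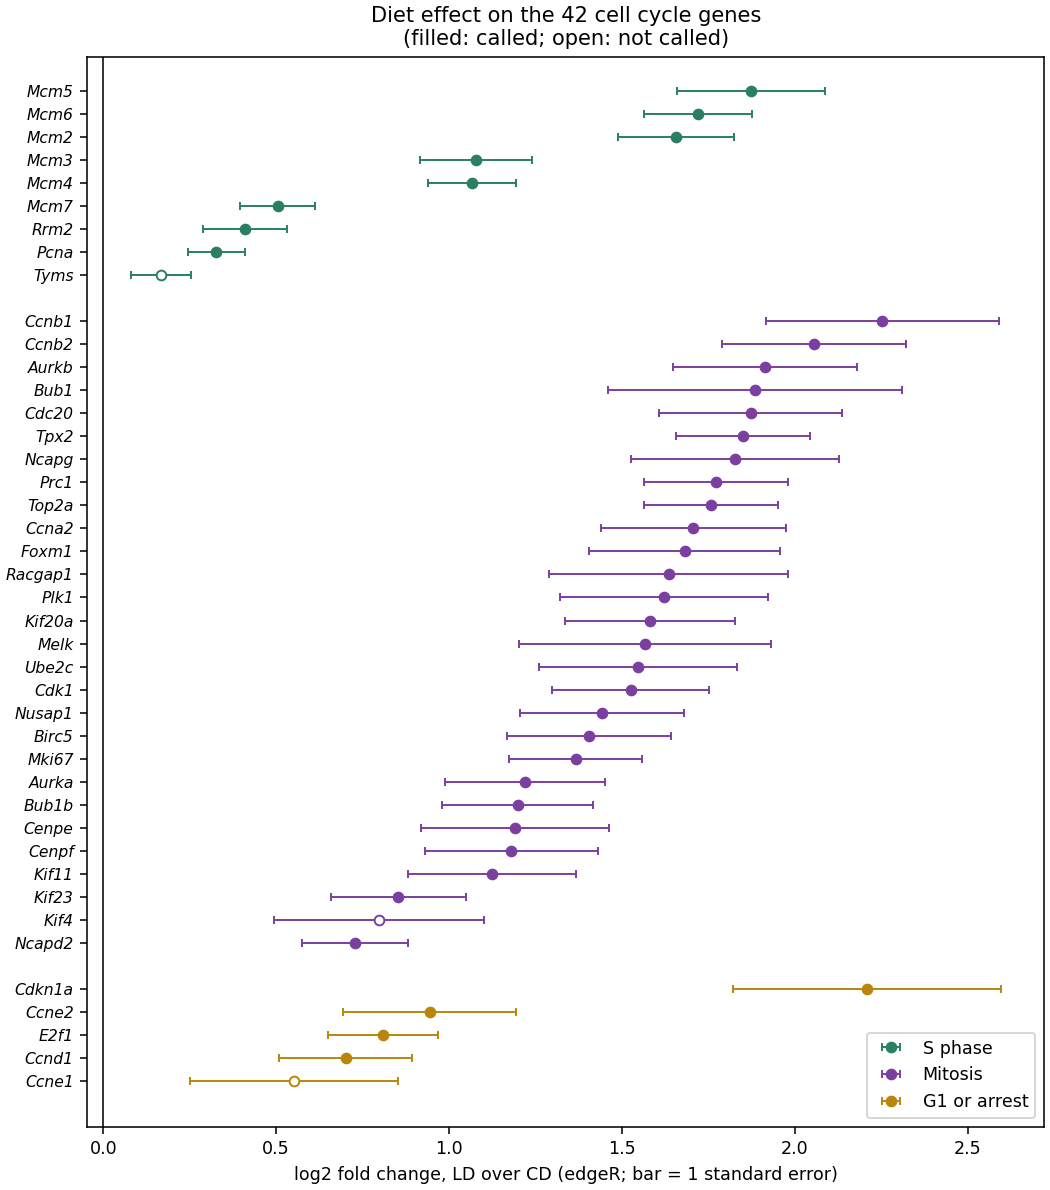
log2 fold change of each of the 42 genes, LD over CD, by class, with bars of 1 standard error (n = 5 mice per diet); filled points were called and open points were not. All 42 points lie right of 0, from 0.17 for Tyms to 2.25 for Ccnb1.

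The S-phase class was led by the MCM helicase, a ring of 6 proteins that unwinds DNA at the replication fork. The levels of Mcm2, a subunit of this ring, were 10.8, 16.2, 15.2, 11.8 and 16.7 CPM in the 5 LD mice and 4.43, 4.15, 5.14, 3.02 and 5.62 CPM in the 5 CD mice. The rise of Mcm2 was 3.15-fold (log2 fold change 1.66 ± 0.17, adjusted p = 3.44e-05), and no CD mouse reached the LD mice, of which replicate 5 was highest. In LD replicates 1 to 5, Mcm5, a further subunit, had 8.93, 16.03, 12.5, 8.55 and 12.2 CPM, and in CD replicates 1 to 5 it had 2.58, 2.79, 2.79, 2.76 and 4.92 CPM. The CD mice of Mcm5 lay close together apart from replicate 5, at 4.92 CPM. With a 3.67-fold rise, Mcm5 passed the test (log2 fold change 1.87 ± 0.21, adjusted p = 8.73e-05), all LD mice lying above all CD mice and LD replicate 2 above the rest. For Mcm6, which sits beside Mcm2 in the ring, the 5 LD mice gave 13.8, 26.7, 21.5, 16.3 and 20.8 CPM and the 5 CD mice 6.28, 6.24, 5.64, 5.27 and 6.64 CPM. The 3.295-fold excess of LD for Mcm6 passed the threshold (log2 fold change 1.72 ± 0.16, adjusted p = 1.86e-05), with LD replicate 2 highest and no overlap between diets. These 3 subunits were the S-phase members with the largest fold changes.

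The other subunits rose by less. Replicates 1 to 5 of Mcm3, the partner of Mcm5, gave 10.5, 19.96, 15.2, 12.2 and 12.6 CPM on LD and 7.55, 6.97, 6.06, 5.399 and 7.39 CPM on CD. Its 2.11-fold rise passed (log2 fold change 1.08 ± 0.16, adjusted p = 0.000474), and no CD mouse reached the LD mice, of which replicate 2 was highest. Mcm4, a subunit of the catalytic core, measured 11.7, 17.2, 14.1, 10.1 and 14.1 CPM across the LD mice and 6.66, 5.899, 6.51, 6.16 and 6.87 CPM across the CD mice. LD exceeded CD by 2.09-fold for Mcm4 (log2 fold change 1.07 ± 0.13, adjusted p = 8.65e-05), all LD mice lying above all CD mice and LD replicate 2 above the rest. Across LD replicates 1 to 5 the values of Mcm7, also of the catalytic core, were 14.9, 21.4, 17.01, 13.9 and 18.6 CPM, and across CD replicates 1 to 5 they were 11.8, 11.5, 12.04, 12.1 and 13.2 CPM. Mcm7 rose 1.42-fold on LD (log2 fold change 0.50 ± 0.11, adjusted p = 0.00398), with LD replicate 2 highest and no overlap between diets. Mcm7 is also the host gene of a microRNA cluster, and it had the highest CD level of the 6 subunits per length, at 9.09 TPM, against 1.66 to 4.14 TPM for the others. On LD the 6 subunits ranged from 6.42 TPM (Mcm5) to 13.6 TPM (Mcm7), so that in ratio they lay closer together than on CD.

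The remaining S-phase genes changed least. Pcna was the most abundant of the 42 genes per length, at 52.6 TPM on LD and 39.7 TPM on CD. Pcna, the sliding clamp of DNA polymerases that also serves in repair, stood at 35.9, 40.5, 32.8, 29.5 and 35.9 CPM in LD replicates 1 to 5 and at 28.8, 27.9, 25.1, 28.7 and 28.7 CPM in CD replicates 1 to 5. Pcna was 1.25-fold higher on LD (log2 fold change 0.33 ± 0.08, adjusted p = 0.0104), and no CD mouse reached the LD mice, of which replicate 2 was highest. The supply of deoxynucleotides is the task of Rrm2 and Tyms. The levels of Rrm2, the regulated subunit of ribonucleotide reductase, were 7.52, 8.76, 8.25, 6.64 and 9.87 CPM in the 5 LD mice and 6.21, 7.1, 6.26, 5.18 and 6.14 CPM in the 5 CD mice. The rise of Rrm2 was 1.33-fold (log2 fold change 0.41 ± 0.12, adjusted p = 0.0227), although the diets overlapped, with LD replicate 5 highest. The call of Rrm2 was lost without LD replicate 5 (adjusted p = 0.0613) or without CD replicate 4 (adjusted p = 0.0538). In LD replicates 1 to 5, Tyms, thymidylate synthase, had 10.2, 12.01, 10.3, 10.6 and 9.25 CPM, and in CD replicates 1 to 5 it had 9.75, 8.77, 9.38, 9.02 and 9.78 CPM. Tyms missed the threshold (log2 fold change 0.17 ± 0.09, adjusted p = 0.174), and its diets overlapped. A pseudogene row of Tyms in the table held 11 counts in all libraries together.

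Of the mitotic cyclins and their kinase, Ccnb1 had the highest fold change of the 42 genes and Ccnb2 the third highest. For Ccnb1, cyclin B1, which with Cdk1 drives entry into mitosis, the 5 LD mice gave 1.06, 1.84, 1.49, 1.52 and 2.74 CPM and the 5 CD mice 0.701, 0.235, 0.279, 0.349 and 0.262 CPM. With a 4.76-fold rise, Ccnb1 passed the test (log2 fold change 2.25 ± 0.34, adjusted p = 0.000399), with LD replicate 5 highest and no overlap between diets. Replicates 1 to 5 of Ccnb2, cyclin B2, gave 2.25, 1.79, 1.86, 2.18 and 3.58 CPM on LD and 0.574, 0.339, 0.726, 0.7304 and 0.437 CPM on CD. The 4.16-fold excess of LD for Ccnb2 passed the threshold (log2 fold change 2.06 ± 0.27, adjusted p = 0.000144), and no CD mouse reached the LD mice, of which replicate 5 was highest. Ccna2, cyclin A2 of S phase and G2, measured 2.19, 3.096, 2.86, 3.31 and 4.42 CPM across the LD mice and 1.15, 0.783, 0.503, 1.56 and 0.902 CPM across the CD mice. Its 3.26-fold rise passed (log2 fold change 1.71 ± 0.27, adjusted p = 0.00055), all LD mice lying above all CD mice and LD replicate 5 above the rest. Across LD replicates 1 to 5 the values of Cdk1, the kinase these cyclins bind, were 2.895, 5.56, 3.85, 3.67 and 5.54 CPM, and across CD replicates 1 to 5 they were 1.69, 1.59, 1.37, 1.94 and 0.902 CPM. LD exceeded CD by 2.88-fold for Cdk1 (log2 fold change 1.52 ± 0.23, adjusted p = 0.000398), with LD replicate 2 highest and no overlap between diets. These 4 genes were of low abundance on both diets per length, with a mean on LD of 1.43 TPM for Ccnb1 and 2.87 TPM for Cdk1.

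The kinases of mitosis rose with them. Plk1, polo-like kinase 1 of centrosomes and kinetochores, stood at 0.785, 0.579, 0.683, 1.001 and 1.15 CPM in LD replicates 1 to 5 and at 0.287, 0.261, 0.1397, 0.349 and 0.3202 CPM in CD replicates 1 to 5. Plk1 rose 3.08-fold on LD (log2 fold change 1.62 ± 0.30, adjusted p = 0.00157), and no CD mouse reached the LD mice, of which replicate 5 was highest. The levels of Aurka, the Aurora kinase of the spindle poles, were 1.49, 2.16, 2.02, 1.73 and 2.097 CPM in the 5 LD mice and 0.828, 0.574, 0.754, 0.635 and 1.28 CPM in the 5 CD mice. Aurka was 2.33-fold higher on LD (log2 fold change 1.22 ± 0.23, adjusted p = 0.00179), all LD mice lying above all CD mice and LD replicate 2 above the rest. In LD replicates 1 to 5, Aurkb, the Aurora kinase of the centromere, had 1.33, 1.18, 1.46, 1.46 and 1.68 CPM, and in CD replicates 1 to 5 it had 0.446, 0.496, 0.279, 0.476 and 0.175 CPM. The rise of Aurkb was 3.77-fold (log2 fold change 1.91 ± 0.26, adjusted p = 0.000238), with LD replicate 5 highest and no overlap between diets. Aurkb had a narrow spread on LD, with an SD of 0.183 CPM around a mean of 1.42 CPM. For Birc5, survivin, which belongs to the complex around Aurora B, the 5 LD mice gave 1.89, 1.54, 1.18, 1.73 and 1.85 CPM and the 5 CD mice 0.733, 0.626, 0.475, 0.857 and 0.408 CPM. With a 2.65-fold rise, Birc5 passed the test (log2 fold change 1.40 ± 0.24, adjusted p = 0.000849), and no CD mouse reached the LD mice, of which replicate 1 was highest. Replicates 1 to 5 of Melk, a kinase with a less settled role in division, gave 0.325, 1.01, 0.776, 0.667 and 0.979 CPM on LD and 0.319, 0.183, 0.196, 0.159 and 0.408 CPM on CD. The 2.96-fold excess of LD for Melk passed the threshold (log2 fold change 1.57 ± 0.36, adjusted p = 0.00637), although the diets overlapped, with LD replicate 2 highest. Melk was the member of this group whose LD replicate 1 lay within the CD range.

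The spindle checkpoint holds the cell until every chromosome is attached. Bub1, a checkpoint kinase of the kinetochore, measured 1.46, 1.06, 0.528, 0.455 and 1.398 CPM across the LD mice and 0.287, 0.261, 0.168, 0.508 and 0.116 CPM across the CD mice. Its 3.69-fold rise passed (log2 fold change 1.88 ± 0.42, adjusted p = 0.00532), although the diets overlapped, with LD replicate 1 highest. LD replicate 4 of Bub1 lay below CD replicate 4. Across LD replicates 1 to 5 the values of Bub1b, the BubR1 checkpoint protein, were 2.44, 4.404, 2.82, 3.15 and 3.91 CPM, and across CD replicates 1 to 5 they were 1.88, 1.85, 0.9497, 1.302 and 1.31 CPM. LD exceeded CD by 2.29-fold for Bub1b (log2 fold change 1.2 ± 0.22, adjusted p = 0.00143), and no CD mouse reached the LD mice, of which replicate 2 was highest. Cenpe, a kinetochore motor, stood at 2.49, 1.94, 1.99, 1.24 and 3.802 CPM in LD replicates 1 to 5 and at 1.12, 0.992, 0.866, 1.302 and 0.757 CPM in CD replicates 1 to 5. Cenpe rose 2.28-fold on LD (log2 fold change 1.19 ± 0.27, adjusted p = 0.00574), although the diets overlapped, with LD replicate 5 highest. Cenpe overlapped in the same pair of mice, LD replicate 4 and CD replicate 4. The levels of Cenpf, a large kinetochore protein, were 2.08, 2.37, 2.98, 2.001 and 3.83 CPM in the 5 LD mice and 1.08, 1.46, 0.9497, 1.65 and 0.699 CPM in the 5 CD mice. Cenpf was 2.27-fold higher on LD (log2 fold change 1.18 ± 0.25, adjusted p = 0.0037), with LD replicate 5 highest and no overlap between diets. The release from the checkpoint runs through the anaphase promoting complex. In LD replicates 1 to 5, Cdc20, its activator, had 1.79, 2.64, 2.64, 3.58 and 4.19 CPM, and in CD replicates 1 to 5 it had 1.05, 0.548, 0.894, 1.02 and 0.553 CPM. The rise of Cdc20 was 3.66-fold (log2 fold change 1.87 ± 0.26, adjusted p = 0.000266), and no CD mouse reached the LD mice, of which replicate 5 was highest. For Ube2c, its ubiquitin-conjugating enzyme, the 5 LD mice gave 1.16, 1.41, 1.15, 2.37 and 2.26 CPM and the 5 CD mice 0.733, 0.4699, 0.698, 0.603 and 0.349 CPM. With a 2.92-fold rise, Ube2c passed the test (log2 fold change 1.55 ± 0.29, adjusted p = 0.00157), all LD mice lying above all CD mice and LD replicate 4 above the rest. In both of these genes LD replicates 4 and 5 stood highest.

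Genes of chromosome structure rose as well. Replicates 1 to 5 of Top2a, the topoisomerase that untangles sister chromosomes, gave 11.99, 13.1, 10.9, 11.3 and 14.3 CPM on LD and 4.05, 4.72, 2.57, 4.67 and 2.21 CPM on CD. The 3.38-fold excess of LD for Top2a passed the threshold (log2 fold change 1.76 ± 0.19, adjusted p = 6.35e-05), with LD replicate 5 highest and no overlap between diets. Mki67, which encodes the Ki-67 proliferation marker, measured 11.99, 17.9, 13.8, 10.5 and 20.1 CPM across the LD mice and 6.21, 7.204, 4.97, 6.26 and 4.19 CPM across the CD mice. Its 2.58-fold rise passed (log2 fold change 1.37 ± 0.19, adjusted p = 0.000399), and no CD mouse reached the LD mice, of which replicate 5 was highest. On LD, Top2a was the most abundant of the mitotic genes per length, at 4.49 TPM. On CD it had 1.25 TPM, beside 1.26 TPM for Ncapd2. Across LD replicates 1 to 5 the values of Ncapg, a condensin subunit, were 1.22, 1.56, 1.52, 0.9704 and 2.38 CPM, and across CD replicates 1 to 5 they were 0.446, 0.418, 0.279, 0.699 and 0.3202 CPM. LD exceeded CD by 3.55-fold for Ncapg (log2 fold change 1.83 ± 0.30, adjusted p = 0.000755), all LD mice lying above all CD mice and LD replicate 5 above the rest. Ncapd2, also of condensin, stood at 4.76, 5.76, 4.03, 6.28 and 5.42 CPM in LD replicates 1 to 5 and at 3.12, 3.498, 3.49, 2.29 and 3.43 CPM in CD replicates 1 to 5. Ncapd2 rose 1.66-fold on LD (log2 fold change 0.73 ± 0.15, adjusted p = 0.0036), with LD replicate 4 highest and no overlap between diets. Ncapd2 had the smallest fold change of the called mitotic genes. Foxm1 was itself low, at 0.481 TPM on LD and 0.141 TPM on CD. The levels of Foxm1, the transcription factor of late cell cycle genes, were 0.785, 0.881, 1.15, 1.39 and 1.31 CPM in the 5 LD mice and 0.446, 0.287, 0.196, 0.413 and 0.378 CPM in the 5 CD mice. Foxm1 was 3.21-fold higher on LD (log2 fold change 1.68 ± 0.28, adjusted p = 0.00073), and no CD mouse reached the LD mice, of which replicate 4 was highest.

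The genes that build the spindle changed in the same direction. In LD replicates 1 to 5, Tpx2, which activates Aurora A on the spindle, had 2.22, 2.92, 3.103, 2.73 and 3.13 CPM, and in CD replicates 1 to 5 it had 1.08, 0.653, 0.866, 0.603 and 0.699 CPM. The rise of Tpx2 was 3.61-fold (log2 fold change 1.85 ± 0.19, adjusted p = 3.44e-05), all LD mice lying above all CD mice and LD replicate 5 above the rest. For Kif11, the motor that pushes the spindle poles apart, the 5 LD mice gave 3.68, 5.54, 2.92, 3.79 and 5.62 CPM and the 5 CD mice 2.87, 2.56, 1.37, 1.56 and 1.54 CPM. With a 2.18-fold rise, Kif11 passed the test (log2 fold change 1.12 ± 0.24, adjusted p = 0.00434), with LD replicate 5 highest and no overlap between diets. CD replicates 1 and 2 of Kif11 came close to the LD range without reaching it. Replicates 1 to 5 of Nusap1, which bundles spindle microtubules, gave 1.62, 2.97, 2.73, 2.15 and 2.94 CPM on LD and 1.37, 0.731, 0.6704, 0.794 and 1.02 CPM on CD. The 2.72-fold excess of LD for Nusap1 passed the threshold (log2 fold change 1.44 ± 0.24, adjusted p = 0.000734), and no CD mouse reached the LD mice, of which replicate 2 was highest. No CD mouse reached the LD range for Tpx2, Kif11 or Nusap1.

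A further group acts at the spindle midzone, where the daughter cells are cleaved apart. Prc1, which bundles the midzone microtubules, measured 2.57, 2.79, 3.13, 3.49 and 4.11 CPM across the LD mice and 1.34, 0.9397, 0.614, 0.921 and 0.902 CPM across the CD mice. Its 3.42-fold rise passed (log2 fold change 1.77 ± 0.21, adjusted p = 7.58e-05), all LD mice lying above all CD mice and LD replicate 5 above the rest. Across LD replicates 1 to 5 the values of Kif20a, a kinesin of cytokinesis, were 2.81, 2.74, 3.01, 3.82 and 5.79 CPM, and across CD replicates 1 to 5 they were 1.53, 0.757, 1.397, 1.302 and 1.11 CPM. LD exceeded CD by 2.99-fold for Kif20a (log2 fold change 1.58 ± 0.25, adjusted p = 0.000532), with LD replicate 5 highest and no overlap between diets. Kif23, a kinesin of the centralspindlin complex, stood at 2.38, 2.34, 1.86, 1.55 and 1.76 CPM in LD replicates 1 to 5 and at 0.956, 1.31, 0.978, 1.33 and 0.902 CPM in CD replicates 1 to 5. Kif23 rose 1.81-fold on LD (log2 fold change 0.85 ± 0.19, adjusted p = 0.00563), and no CD mouse reached the LD mice, of which replicate 1 was highest. The levels of Racgap1, the partner of Kif23 in centralspindlin, were 2.06, 2.94, 2.64, 2.37 and 3.55 CPM in the 5 LD mice and 1.37, 1.04, 0.587, 1.18 and 0.204 CPM in the 5 CD mice. Racgap1 was 3.11-fold higher on LD (log2 fold change 1.64 ± 0.35, adjusted p = 0.00398), all LD mice lying above all CD mice and LD replicate 5 above the rest. CD replicate 5 of Racgap1 was the lowest of the 10 mice. In LD replicates 1 to 5, Kif4, a chromokinesin that works with Prc1, had 1.41, 2.06, 1.99, 1.09 and 2.63 CPM, and in CD replicates 1 to 5 it had 1.05, 0.705, 0.726, 1.91 and 0.931 CPM. Kif4 missed the threshold (log2 fold change 0.80 ± 0.30, adjusted p = 0.0649), and its diets overlapped. CD replicate 4 stood within the LD range of Kif4, and once that mouse was omitted Kif4 passed (log2 fold change 1.11, adjusted p = 0.0115). Kif4 also passed without LD replicate 4 (log2 fold change 0.93, adjusted p = 0.0354) and with DESeq2 (adjusted p = 0.0427).

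**Figure D3:**
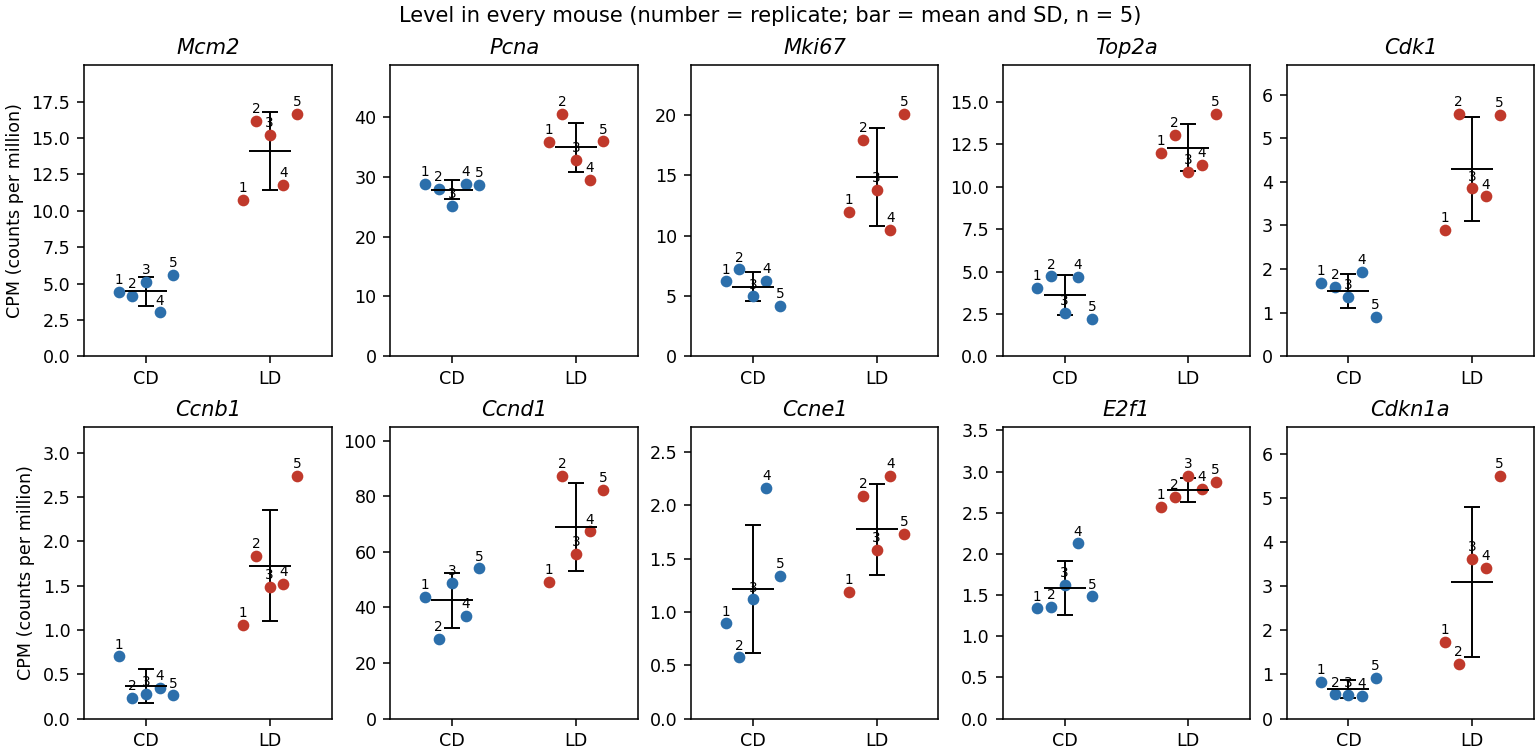
CPM of 10 of the genes in each of 5 CD and 5 LD mice, on linear axes from 0; numbers are replicates and bars are the mean and SD. Top2a, Mki67, Cdk1, Ccnb1, Mcm2, Pcna, E2f1 and Cdkn1a have all LD mice above all CD mice, whereas Ccnd1 and Ccne1 overlap.

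Of the G1 genes, cyclin D1 (Ccnd1) was the most abundant, at 34.6 TPM on LD and 20.1 TPM on CD. For Ccnd1, the cyclin that answers to growth signals, the 5 LD mice gave 49.1, 87.4, 59.2, 67.4 and 82.3 CPM and the 5 CD mice 43.9, 28.7, 48.9, 37 and 54.1 CPM. The rise of Ccnd1 was 1.63-fold (log2 fold change 0.70 ± 0.19, adjusted p = 0.0205), although the diets overlapped, with LD replicate 2 highest. LD replicate 1 of Ccnd1 lay inside the CD range, and its call was lost without CD replicate 4 (adjusted p = 0.0508). The E cyclins open S phase with Cdk2. Replicates 1 to 5 of Ccne2, cyclin E2, gave 4.95, 5.06, 4.003, 2.64 and 3.61 CPM on LD and 1.18, 1.49, 2.54, 3.02 and 2.33 CPM on CD. With a 1.92-fold rise, Ccne2 passed the test (log2 fold change 0.94 ± 0.25, adjusted p = 0.0131), although the diets overlapped, with LD replicate 2 highest. Ccne1, cyclin E1, measured 1.19, 2.09, 1.58, 2.27 and 1.73 CPM across the LD mice and 0.892, 0.574, 1.12, 2.16 and 1.34 CPM across the CD mice. Ccne1 missed the threshold (log2 fold change 0.55 ± 0.30, adjusted p = 0.193), and its diets overlapped. CD replicate 4 was high for both E cyclins, and once it was omitted Ccne1 passed (log2 fold change 0.86, adjusted p = 0.0365).

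E2f1 had the smallest coefficient of variation on LD among the 42 genes, 5.39%, and Cdkn1a had the largest, 54.7%. Across LD replicates 1 to 5 the values of E2f1, an activator of replication genes, were 2.57, 2.69, 2.95, 2.79 and 2.88 CPM, and across CD replicates 1 to 5 they were 1.34, 1.36, 1.62, 2.13 and 1.48 CPM. The 1.75-fold excess of LD for E2f1 passed the threshold (log2 fold change 0.81 ± 0.16, adjusted p = 0.00227), all LD mice lying above all CD mice and LD replicate 3 above the rest. Cdkn1a rose in the same livers as the genes it opposes. Cdkn1a, the p21 inhibitor of cyclin-dependent kinases, stood at 1.73, 1.23, 3.63, 3.43 and 5.51 CPM in LD replicates 1 to 5 and at 0.828, 0.548, 0.531, 0.508 and 0.931 CPM in CD replicates 1 to 5. Its 4.62-fold rise passed (log2 fold change 2.21 ± 0.39, adjusted p = 0.00149), with LD replicate 5 highest and no overlap between diets. The fold change of Cdkn1a was second only to that of Ccnb1 among the 42.

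The classes did not peak in the same mouse. LD replicate 2 was the highest LD mouse for 7 of the 9 S-phase genes, and the summed level of the class in LD replicates 1 to 5 was 124, 179, 147, 119.7 and 149.99 CPM, against 77.6 to 89.3 CPM on CD. LD replicate 5 was the highest LD mouse for 17 of the 28 mitotic genes, and their sum was 75.1, 96.1, 81.1, 81.5 and 116 CPM in LD replicates 1 to 5, against 26.7 to 38.7 CPM on CD. LD replicate 1 was the lowest LD mouse for 12 of the 28. LD replicate 2, highest for S phase, had the lowest Cdkn1a of the LD mice, at 1.23 CPM, and LD replicate 5, highest for mitosis, had the highest, at 5.51 CPM. On CD, replicate 5 was the highest CD mouse for 6 of 9 S-phase genes and the lowest for 11 of 28 mitotic genes. The summed G1 or arrest level, set mainly by Ccnd1, overlapped between diets, at 59.6 to 98.5 CPM on LD and 32.7 to 60.2 CPM on CD.

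**Figure D4:**
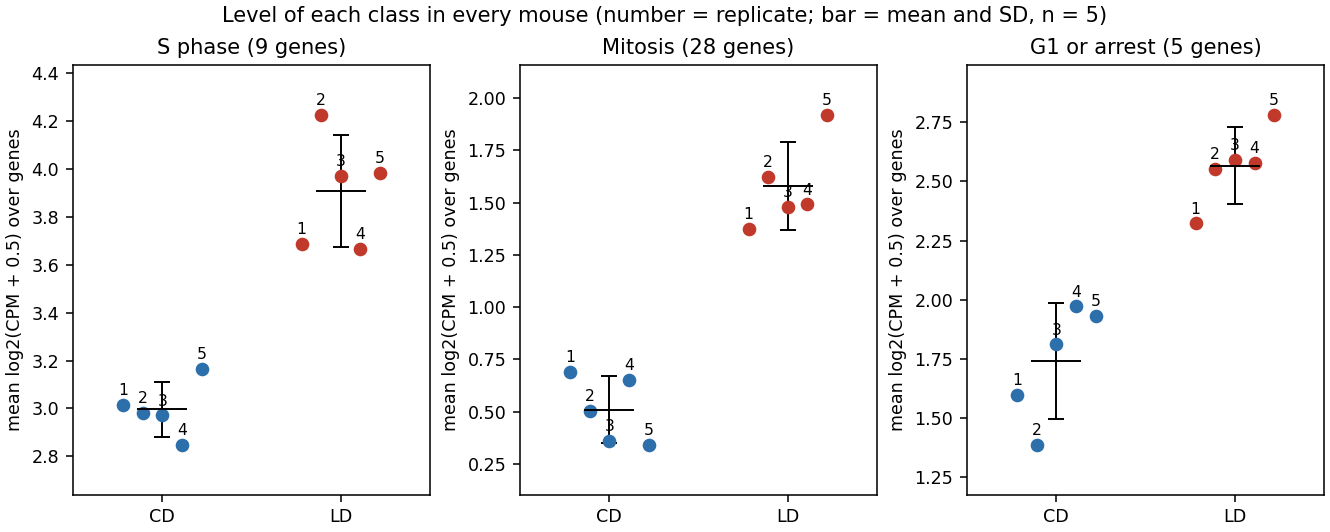
Mean over genes of log2(CPM + 0.5) for each class in every mouse, with the mean and SD of the 5 mice per diet; the axes do not start at 0. The LD mice lie above the CD mice in each class by this measure, with LD replicate 2 highest for S phase (4.23) and LD replicate 5 highest for mitosis (1.92).

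Other genes of the same processes moved with the list to differing degrees, and each median given for them is over all tested genes of a list. Of 39 tested other replication genes, 23 rose and 1 fell, with a median log2 fold change of 0.46. The largest changes at a mean of 1 CPM or more were those of Uhrf1 (2.66, adjusted p = 5.66e-05), which keeps DNA methylation through replication, Cdc6 (2.32, adjusted p = 0.000412) and Gins2 (2.01, adjusted p = 8.69e-05), which load and activate the helicase, Dtl (2.24, adjusted p = 3.96e-05), Clspn (1.90, adjusted p = 0.00362), and Chaf1a (1.48, adjusted p = 0.000329), a chromatin assembly factor. The gene that fell, named after its value was seen, was Tk1, thymidine kinase, at 12.2, 13.5, 9.34, 8.89 and 7.63 CPM in LD replicates 1 to 5 and 16.1, 15.3, 16.7, 22.9 and 13.6 CPM in CD replicates 1 to 5 (log2 fold change -0.71 ± 0.17, adjusted p = 0.00884). The highest LD mouse of Tk1 lay below the lowest CD mouse.

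Of 50 tested other mitotic genes, 38 rose, with a median log2 fold change of 1.12. None was called lower by edgeR or DESeq2 or at an unadjusted p under 0.05. Among those at a mean of 1 CPM or more they were led by Pbk (2.38, adjusted p = 0.000666), Dlgap5 (2.30, adjusted p = 0.000133), Ckap2 (2.07, adjusted p = 0.000602), Hmmr (1.82, adjusted p = 0.00217), Nuf2 (1.80, adjusted p = 0.00162) and Cdca3 (1.70, adjusted p = 0.000787), of which Nuf2 belongs to the kinetochore and Dlgap5, Ckap2 and Hmmr to the spindle. The upstream cyclins, kinases, inhibitors and pocket proteins of G1 moved less. Of 31 tested, 3 rose and 1 fell, with a median of 0.07. Rbl1 (0.88, adjusted p = 0.000221), Cdk6 (0.41, adjusted p = 0.0323) and Tfdp1 (0.32, adjusted p = 0.0124) rose, and Rbl2, the retinoblastoma relative of resting cells, fell by 0.29 on the log2 scale (adjusted p = 0.0153). The share of this list called higher did not exceed the 13.8% of all tested genes.

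Of 25 tested p53 target genes other than Cdkn1a, 11 rose, the median log2 fold change of all 25 was 0.24, and none was lower by edgeR or DESeq2 or at an unadjusted p under 0.05. The leading genes at a mean of 1 CPM or more were Eda2r (2.02, adjusted p = 0.0024), Phlda3 (1.38, adjusted p = 0.00118), Btg2 (1.11, adjusted p = 0.000118), Gadd45b (1.06, adjusted p = 0.0132), Aen (0.65, adjusted p = 0.000977) and Ccng1 (0.57, adjusted p = 0.000864). Of 69 replication-dependent histone genes, 51 were tested and 31 rose, with a median of 0.86, and none was lower by edgeR or DESeq2 or at an unadjusted p under 0.05. They included Hist1h1b (2.14, adjusted p = 1.27e-05), Hist1h2bh (2.08, adjusted p = 1.84e-05), Hist1h3h (2.04, adjusted p = 0.000864), Hist1h3b (1.82, adjusted p = 0.000425), Hist1h3c (1.77, adjusted p = 6.6e-05) and Hist1h2bf (1.69, adjusted p = 0.00024). Histone genes are near-identical copies without long poly(A) tails, so single copies are uncertain, and the summed level of the 69 overlapped between diets, at 615 to 755 CPM on LD and 505 to 703 CPM on CD.

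Markers of other cell types were read beside these results, and 13.8% of all tested genes were called higher and 11.1% lower. Of 9 hepatocyte markers 4 fell, led by Cps1 (log2 fold change -1.33), Serpina1c (-0.86) and Fgb (-0.76), and their summed level was 86136 to 107705 CPM on LD and 98406 to 114251 CPM on CD. 6 of 14 macrophage markers rose, led by Gpnmb (4.53), Trem2 (2.55) and Itgax (2.48), with a summed level of 551 to 1387 CPM on LD and 412 to 822 CPM on CD. LD replicate 2, the mouse highest for S-phase genes, had the highest macrophage sum, and LD replicate 5, highest for mitotic genes, had the lowest of the LD mice, at 551 CPM. Of 9 stellate cell and fibroblast markers 3 rose, Col1a1 (1.60), Col3a1 (1.44) and Dcn (0.38), with a sum of 759 to 1086 CPM on LD and 679 to 808 CPM on CD. Of 6 cholangiocyte markers Spp1 rose (1.98), and the sum was 46.2 to 122 CPM on LD and 19.0 to 32.7 CPM on CD. Spp1 made up most of this sum, at a mean of 66.5 CPM on LD and 16.8 CPM on CD, and the log2 fold changes of the other 5 were -0.60 to 0.75, none of them called. LD replicate 5 also had the highest stellate cell and cholangiocyte sums of the LD mice, at 1086 and 122 CPM. Its hepatocyte sum was the lowest of the LD mice, at 86136 CPM. For the lists below, LD replicate 2 was highest of the LD mice for the neutrophil, endothelial, erythroid and adipocyte sums. LD replicate 5 was lowest for the lymphocyte, erythroid and adipocyte sums. The part of these cells in the cell cycle result was not tested.

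The remaining marker lists were those of blood, endothelial and fat cells. Of 14 lymphocyte markers 2 rose and 1 fell, where 13.8% of all tested genes were called higher and 11.1% lower. Among them were Cd79b (0.71) and Cd4 (-1.26), and the sum was 8.64 to 18.2 CPM on LD and 9.69 to 12.1 CPM on CD. Of 8 endothelial markers Lyve1 rose (0.90), with sums of 452 to 631 CPM on LD and 498 to 603 CPM on CD. Only 3 of the 8 had a fold change above 0 on the log2 scale, and the median was -0.05. Kdr, though not called, was lower at an unadjusted p under 0.05 by edgeR. None of 6 tested erythroid precursor markers was called by edgeR, 1 of them (Alas2) was lower at an unadjusted p under 0.05, their sum was 128 to 167 CPM on LD and 159 to 179 CPM on CD, and Hba-a1 and Hbb-b1 were at 0 counts in every library. Of 5 adipocyte markers 1 was tested and rose (Cfd, 5.44), Plin1 and Lep were at 0, and the sum was 4.08 to 41.98 CPM on LD and 0.0953 to 1.34 CPM on CD. Of 4 tested neutrophil markers S100a8 rose (3.67), and the summed level was 95.6 CPM in LD replicate 2 against 7.57 to 8.52 CPM in the other LD mice and 4.46 to 5.47 CPM on CD. Without LD replicate 2, the same 39 of the 42 cell cycle genes were called.

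H3K27ac, a mark of active promoters and enhancers, was read as the percentage of the window from 1000 bases before to 1000 bases after each start site that lay inside the peaks called in a sample, since the peak lists hold positions only and no signal. All LD samples lay above all CD samples at 7 of the 42 start sites, and none lay below. The background over 12030 genes was 4.57% above and 0.873% below. The LD peak lists were also longer in all, covering 150 to 160 Mb of the genome against 140 to 145 Mb on CD. With 3 samples per diet an exact two-sided permutation test cannot give a p below 0.1, and no other test was run on the coverage.

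The 7 start sites were those of Mcm3, Mcm4 and Mcm6 among the S-phase genes (3 of 9) and of Plk1, Bub1b, Kif11 and Nusap1 among the mitotic genes (4 of 28), with none among the 5 G1 or arrest genes. Coverage at Mcm3 was 69.97%, 79.96% and 69.97% in LD replicates 1 to 3 and 39.98%, 0% and 29.99% in CD replicates 1 to 3. Coverage at Mcm6 was 88.4%, 88.4% and 98.3% in LD replicates 1 to 3 and 59.97%, 79.96% and 59.97% in CD replicates 1 to 3. Coverage at Mcm4 was 84.6%, 94.6% and 89.96% in LD replicates 1 to 3 and 69.97%, 69.97% and 69.97% in CD replicates 1 to 3. E2F letters stood in the promoters of Mcm3, Mcm4 and Mcm6, but also in those of Mcm5 and Mcm7, where coverage overlapped between diets. Coverage at Mcm5 was 69.97% in each LD sample and 59.97%, 59.97% and 88.7% in CD replicates 1 to 3. Coverage at Nusap1 was 49.98%, 98.3% and 71.7% in LD replicates 1 to 3 and 0%, 0% and 0% in CD replicates 1 to 3. No CD sample had a peak at Nusap1. Coverage at Bub1b was 69.97%, 69.97% and 79.96% in LD replicates 1 to 3 and 39.98%, 39.98% and 39.98% in CD replicates 1 to 3. Coverage at Plk1 was 69.97%, 69.97% and 97.5% in LD replicates 1 to 3 and 59.97%, 49.98% and 39.98% in CD replicates 1 to 3. Coverage at Kif11 was 100%, 100% and 100% in LD replicates 1 to 3 and 65.4%, 85.4% and 65.4% in CD replicates 1 to 3. The diets did not overlap at any of the 7 sites, although the steps of 200 bases in which peaks were called make the percentages coarse.

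At the remaining sites the diets overlapped. The mean of LD lay above that of CD at 33 of 42 sites, against 42.6% of all genes. Equal means, as at sites without a peak or covered in full, count as not above in both shares. Ccnd1 was covered over its whole window in all 6 samples, and Pcna was covered by 87.5% to 100% in every sample. No sample had a peak at the most upstream start of Bub1, Melk or Cdkn1a, as was the case for 7.15% of all genes. The annotation gives Cdkn1a 2 further starts, and at the next (chr17:29230717) peaks covered 45.8%, 45.8% and 95.8% of the window in LD replicates 1 to 3 and 45.8%, 35.8% and 65.8% in CD replicates 1 to 3, which overlap. Peaks at Racgap1 were seen in 2 LD samples and no CD sample, and at Cenpf in 1 LD sample and no CD sample. In each sample the median member was covered less (59.97% in the CD samples, 71.9% to 78.1% in the LD samples) than the median gene (85.8% to 91.6%). Within 20000 bases of the start, 13 members were above and 2 (Birc5 and Ncapg) below, against 18.0% and 5.2% of all genes.

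**Figure D5:**
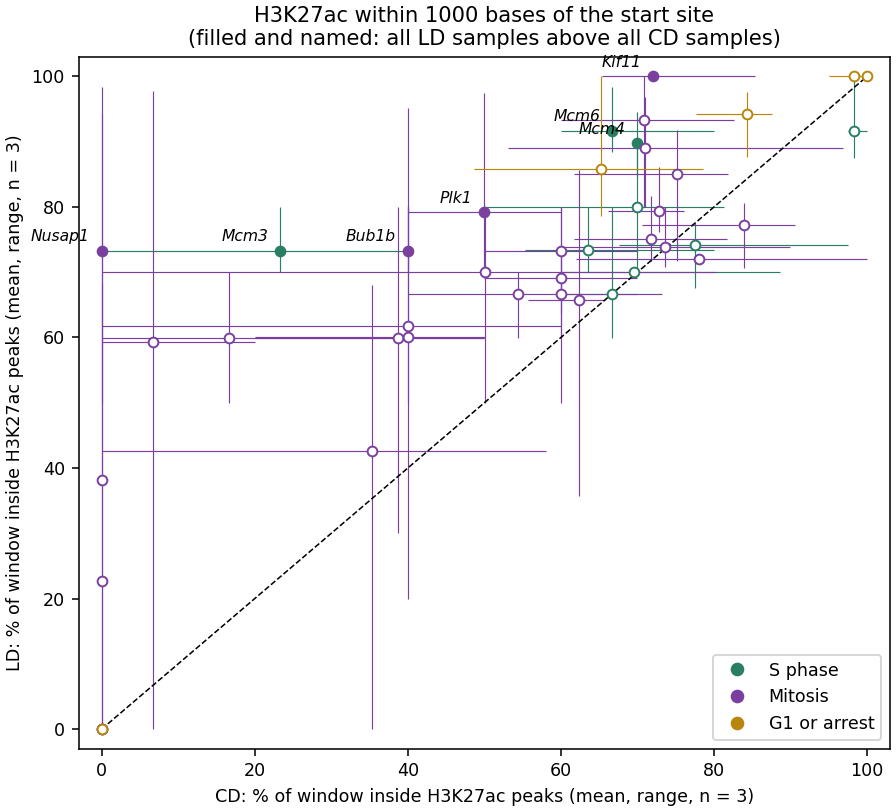
Percentage of the window of 1000 bases on either side of each start site inside H3K27ac peaks, CD on the x axis and LD on the y axis; points are means and lines the range of 3 samples per diet, and the dashed line marks equal coverage. The 7 filled and named points, among them Nusap1 at 0% on CD and 73.3% on LD, have all LD samples above all CD samples.

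Peaks of the hepatocyte factors Hnf4α and C/EBPα were counted at the same start sites, with no test of the shares. An Hnf4α peak lay within 1000 bases of the start of 5 to 10 of the 42 genes in the 4 samples, against 35.6% to 47.1% of all genes, and Kif11, Ube2c, Aurka and Ccne2 had a peak in every sample. Kif11 had the highest Hnf4α peaks, with normalised tag counts of 133 and 130.0 on LD and 115 and 193 on CD, which overlap. A C/EBPα peak lay there for 6 to 11 of the 42, against 28.3% to 32.1% of all genes, and Mcm3, Pcna, Nusap1 and Ube2c had one in every sample. At Mcm3 the C/EBPα tag counts were 50.5 and 51.5 on LD and 84.5 and 65.0 on CD. The CD samples were the higher ones there, with 2 samples per diet and no test.

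The promoter contacts, called by the authors on pooled replicates, give no error. The median number of significant interactions was 2 per member on each diet and 3 per gene over all tested genes. 11 of the 42 had none on LD and 9 had none on CD, and the same share over all genes was not computed. Ccnd1 had 49 interactions on LD and 38 on CD, of which 37 were shared, Rrm2 had 46 and 49, Ncapg had 36 and 41, and Kif11 had 23 and 23. Over the 42 genes the sums were 335 on LD and 340 on CD.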

How the data were processed

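Per the methods of the study, the authors filtered read pairs for base quality, aligned them to mm9 with STAR (2.5 in the submitters' processing notes) and counted them per RefSeq gene, by strand, with featureCounts 1.5.0-p1. The deposited counts are raw, and the deposited TPM values are the authors' length-scaled form of them, for which the gene lengths are not given in the sources used here. One TPM column has a replicate number that no sample carries, so it was used as a CD mouse without a number. H3K27ac peaks were called by the authors per sample with SICER on Bowtie 0.12.8 alignments, and the deposited peak lists used here hold positions only. Hnf4α and C/EBPα peaks were called per sample with HOMER, whose normalised tag count is the deposited signal. The deposited CHiCAGO score of each promoter interaction was computed by the authors on pooled replicates of a diet. Columns of the authors' own fold changes and adjusted p-values were not used, nor were the domain lists.

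Counts were tested with edgeR 4.0.16 (TMM, filterByExpr, robust quasi-likelihood fit on all 10 libraries, diet as the only term), and a gene was called at an adjusted p under 0.05 (Benjamini-Hochberg) and a fold change above 1.2. DESeq2 1.42.0, limma 3.58.1 on log2(TPM + 1) and log2(TPM + 0.1), other filters, a replicate block and the omission of each library in turn were alternatives. The test of counts and the computation of coverage in a window were checked on simulated data. Depth was 31707963 to 39012699 pairs per library, a spread of which TMM takes account. Replicates are separate samples by their labels, which do not say that they are separate animals, while the methods give 5 animals per group. A start site was the most upstream start of a protein-coding transcript in GENCODE vM1, and sequences were read from NCBIM37. The members and all gene lists were chosen with earlier results of these data known. Every member that was called or did not overlap between diets is given with its values, as are Mki67, Top2a, Cdk1, Ccnb1, Mcm2, Pcna, Ccnd1, Ccne1, E2f1 and Cdkn1a. From each companion list at most 6, and from each marker list at most 3, called genes with the largest change and a mean of 1 CPM or more on a diet are named.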

Additional observations from a re-analysis of the deposited data

Results flagged for a closer look

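In 124 groups of 5 mice (each diet for each of the 42 genes, 3 class means and 17 summed lists), the highest or lowest mouse stood apart from the other 4 by more than Dixon's 95% limit in 7, and chance alone gives about 1 in 20. 5 of the 7 were single members. Ccnb1 was 0.701 CPM in CD replicate 1, where the nearest other CD mouse had 0.349 CPM, which raises the CD mean of the gene with the highest fold change. Ccnb2 was 3.58 CPM in LD replicate 5, the mouse highest for most mitotic genes, against 2.25 CPM in the next LD mouse. Kif4 was 1.91 CPM in CD replicate 4 against 1.05 CPM, and Kif4, which was not called, passed without this mouse, as it also did without LD replicate 4 or with DESeq2. Mcm5 was 4.92 CPM in CD replicate 5 against 2.79 CPM, and Pcna was 25.1 CPM in CD replicate 3 against 27.9 CPM. Of the marker sums, the cholangiocyte markers stood at 32.7 CPM in CD replicate 2 against 20.3 CPM, and the neutrophil markers at 95.6 CPM in LD replicate 2 against 8.52 CPM.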

How the results depend on the processing

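The 42 genes were compared under 17 alternatives, and none of the resulting fold changes changed sign. The number called was 38 to 40 when single libraries were left out (7 to 8 of the S-phase, 27 to 28 of the mitotic and 4 of the G1 or arrest genes), and 40 with DESeq2, which added Kif4. The medians over those omissions were 1.37 to 1.60 for all 42, 0.92 to 1.13 for S phase, 1.44 to 1.66 for mitosis and 0.75 to 0.94 for G1 or arrest. A minimum of 10 counts in every library left 32 called, since Ccnb1, Plk1, Aurkb, Bub1, Foxm1, Melk and Racgap1 were then not tested, and the median fell to 1.22. On log2(TPM + 1) the median was 0.72 for all 42 and for the mitotic genes, and on log2(TPM + 0.1) it was 1.27 and 1.36, because the added constant is large beside these low values; 39 were called in both. Over all genes, 2192 and 2376 were higher and 728 and 779 lower on LD with these TPM fits, against 1859 and 1498 with edgeR. Of the G1 companion list, 5 rose and 0 fell with log2(TPM + 0.1), 0 fell with log2(TPM + 1), and without single libraries 2 to 5 rose and 0 to 2 fell. The depth limits the lowest members, several of which had under 10 counts in a CD library.

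The replicate numbers did not pair the samples: deviations of same-numbered LD and CD mice correlated at -0.113 to 0.217, and not every mouse correlated best with its own number. With the number as a replicate block, 37 of the 42 were called and 2 of the G1 or arrest genes in place of 4, without Ccnd1 (adjusted p = 0.0577) and Ccne2 (adjusted p = 0.0522), and 3173 of all genes were called in place of 3357.

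For H3K27ac, the 7 start sites above stood beside 550 of 12030 genes. They became 6 and 8 with windows of 500 and 2000 bases on either side, where 249 and 882 of all genes lay above. The mean over all annotated starts gave 7, beside 717 of all genes. Added after seeing the data, the RefSeq gene end gave 7, beside 554 of all genes. The window of 20000 bases, also added then, gave 13 above and 2 below, beside 2161 and 626 of all genes. Leaving out a sample gave 9 to 11 above and 0 to 1 below, as fewer samples overlap less. Over all 12030 genes the same omissions gave 778 to 998 above and 182 to 293 below.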
